A study of Mus musculus with 8 samples.

Results

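The myeloid lineage transcription factors described here are 9 genes chosen by symbol: Irf8, Maf, Mef2a, Mef2c, Cebpa, Cebpb, Runx1, Klf2 and Klf4. Of these 9, the 8 other than Irf8 had a row with a matching gene name among the 37447 genes of the deposited table, and Irf8 was not analysed here. The libraries came from microglia, the macrophages that reside in brain, retina and optic nerve, sorted by flow cytometry from the optic nerves of C57BL/6 mice at 3 months of age. All mice were Nf1 flox/flox. The 4 FF libraries came from mice with these alleles alone, and the 4 FFC libraries from mice that also carried GFAP-Cre, in which the promoter of the astrocyte gene Gfap drives the recombinase. The study's design text places the loss of Nf1 in astrocytes, so the sorted cells were not the cells in which deletion was intended. Each genotype had 2 female and 2 male libraries. The libraries are labelled as biological replicates, but the sources used here do not say whether each holds 1 animal or a pool. If libraries share animals, the p-values measure only the spread between these samples.

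Myeloid transcription factors bind DNA in combinations that set and maintain the identity of macrophages. RUNX1 and C/EBP-alpha act in blood progenitors and committed myeloid cells, MEF2 factors and MAF factors take part in the enhancers of differentiated microglia, C/EBP-beta is tied to inflammatory gene expression, and KLF2 and KLF4 are zinc-finger factors that restrain or shape inflammatory activation. Several of them also act in other cells: KLF2 and KLF4 in endothelium, C/EBP factors in neutrophils, RUNX1 and KLF2 in T cells. In bulk RNA, fewer cells of a type and less RNA per cell cannot be told apart.

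The promoters of 3 members are shown as descriptions of their sequence, and no link between a promoter and the levels given later was tested. Klf2 carries in its promoter the sequence element that MEF2 proteins, encoded by the 2 most abundant members, recognise. Cebpa carries an element of the kind bound by its own protein. Cebpb has the promoter richest in G and C among those found for the members. Each sequence covers the 250 bases before the transcription start annotated by RefSeq (GRCm38.p6), on the plus strand. Capitals mark CTAAATTTAG in Klf2 (chr8:72318812-72319061) and TTGCG, one side of the C/EBP palindrome, in Cebpa (chr7:35119043-35119292), and nothing is marked in Cebpb (chr2:167688665-167688914).
Klf2: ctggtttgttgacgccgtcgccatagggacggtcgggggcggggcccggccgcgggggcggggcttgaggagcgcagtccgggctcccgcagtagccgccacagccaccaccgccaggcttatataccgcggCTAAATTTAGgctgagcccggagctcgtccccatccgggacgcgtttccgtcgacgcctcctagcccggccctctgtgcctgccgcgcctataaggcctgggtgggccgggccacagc
Cebpa: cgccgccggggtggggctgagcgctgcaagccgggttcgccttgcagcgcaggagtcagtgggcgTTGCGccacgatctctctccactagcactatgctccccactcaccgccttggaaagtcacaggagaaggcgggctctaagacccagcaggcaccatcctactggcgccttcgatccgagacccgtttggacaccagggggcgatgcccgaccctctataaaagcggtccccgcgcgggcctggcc
Cebpb: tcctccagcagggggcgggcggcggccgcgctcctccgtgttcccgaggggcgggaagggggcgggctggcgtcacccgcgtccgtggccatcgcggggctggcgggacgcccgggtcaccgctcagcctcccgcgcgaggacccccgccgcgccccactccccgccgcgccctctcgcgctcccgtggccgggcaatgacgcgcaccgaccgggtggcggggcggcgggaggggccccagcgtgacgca

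The promoter table held 10 windows for 7 members and was matched by symbol. Motifs were searched on both strands of the 250 upstream bases: the MEF2 consensus, TTGCG for C/EBP factors, TGTGGT for RUNX1, CACCC for KLF factors and TGCTGA for MAF factors. CTAAATTTAG, the match to the MEF2 consensus in the Klf2 window, was counted as well. It is one case of the consensus, and the other motifs do not overlap with it in these windows. The MEF2 consensus was found in Klf2 alone among the members, 118 to 109 bases before the start, and 2.92% of all 32851 windows held it. CTAAATTTAG itself was in 13 windows (0.0396%). Because it was taken from the Klf2 window, the share to set beside Klf2 is the 2.92% of the consensus. TTGCG was found in Cebpa alone, 185 to 181 bases before the start, against 14.5% of all windows. CACCC occurred upstream of Cebpa, Cebpb, Klf2, Mef2c and Runx1 (52.0% of all windows) and TGCTGA in 1 Mef2c window (16.1%). TGTGGT was in none of the members' windows and in 14.0% of all. These matches describe letters and not bound sites. In G and C content the windows ran from 33.6% in 1 of 3 Mef2c windows to 81.6% in Cebpb, with a median of 52.4% over all windows.

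The deposited values are FPKM (fragments on a gene relative to its length and to all mapped fragments). Read counts are not part of the table, and sequencing depth is therefore unknown. The summed FPKM ranged from 367760 to 700291. FF 2 and FF 4 stood apart, with the lowest sums, the lowest median Spearman correlation with the other libraries over genes (0.398 and 0.464, against 0.507 to 0.597) and the largest chemosensory receptor share of their summed FPKM (olfactory and vomeronasal genes, 4.56% and 3.60%, against 0.734% to 1.86%). Genotype differences of the tested members are given with and without these 2 libraries. The labelled cell type was checked on 10 microglia markers, which were above 0 in all 8 libraries. Their summed FPKM was 1662 to 4860 in FF and 3163 to 5796 in FFC.

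The members spanned almost the whole range of expression, from Mef2a among the most abundant transcripts to Cebpb below 1 FPKM in every library. Over the 8 libraries the order of mean log2(FPKM + 1), a scale on which levels can be set side by side because FPKM is per length, was Mef2a (7.40), Mef2c (6.20), Runx1 (5.18), Klf2 (4.03), Cebpa (3.84), Maf (3.08), Klf4 (1.65) and Cebpb (0.28). Neighbours in this order were compared within libraries with an exact two-sided sign-flip permutation test over the 8 libraries, adjusted over the 7 pairs. No neighbouring pair passed. With 8 libraries the smallest p of this permutation test is 0.00781, which becomes an adjusted p of 0.0547 when 1 pair alone reaches it. A single pair therefore could not pass, whatever its levels. The order was also taken from the same 8 libraries. The step from Maf to Klf4 had the same sign in 8 of 8 libraries (mean difference 1.43 ± 1.08, SD; exact permutation p = 0.00781, adjusted p = 0.0547). Klf2 and Cebpa were closest (0.18 ± 0.89, higher for Klf2 in 4 of 8; exact permutation p = 0.562, adjusted p = 0.562). Mef2c exceeded Runx1 in 5 of 8 libraries (1.02 ± 1.57; exact permutation p = 0.109, adjusted p = 0.128). The 4 other steps, Mef2a to Mef2c, Runx1 to Klf2, Cebpa to Maf and Klf4 to Cebpb, had the adjusted p of the step from Maf to Klf4, 0.0547. Without FF 2 the steps from Mef2a to Mef2c (1.54), Runx1 to Klf2 (1.37) and Maf to Klf4 (1.37) passed. Each had an exact permutation p of 0.0156 and an adjusted p of 0.0365. With 7 libraries 0.0156 is the smallest p of this test, and these steps passed the adjustment because they shared it. Of these steps only Maf to Klf4 had a smaller mean difference than with all 8 libraries. Leaving out any other single library gave no step that passed.

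**Figure D1:**
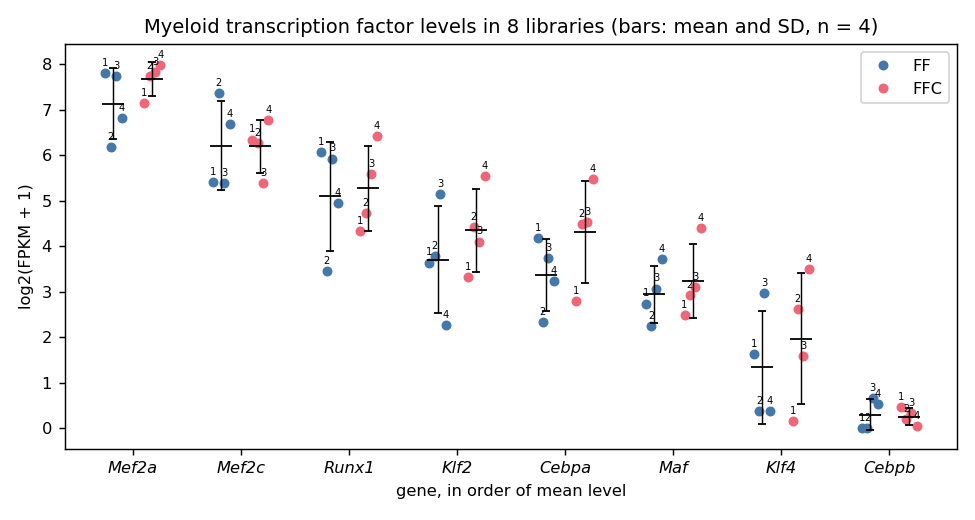
Levels of the 8 measured factors as log2(FPKM + 1), 1 point per library with its replicate number, FF in blue and FFC in red, with the mean and SD of 4 libraries as bars. The factors run from Mef2a at a mean of 7.40 down to Cebpb at 0.28, and the FF and FFC points overlap for every factor.

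None of the 7 members that could be tested passed the test between FFC and FF. Members were tested where the mean was at least 1 FPKM, which left out Cebpb. In limma's linear model over 17753 genes, 0 members had an adjusted p under 0.05 and 0 had an unadjusted p under 0.05, beside 0.0% and 6.46% of all tested genes. For 0 of the 8 measured members did the genotypes separate without overlap, where 3.05% of all tested genes lay wholly higher and 1.29% wholly lower in FFC. The mean was higher in FFC for 6 of the 7 tested members, all but Mef2c, against 56.7% of all tested genes. Their median difference was 0.54 on the log2(FPKM + 1) scale beside 0.19 over all tested genes. Without FF 2 and FF 4 the mean was higher for 3 of 7 members (52.7% of all genes), and the median was -0.04 beside 0.08. Without FFC 4 it was higher for 4 of 7, with a median of 0.11. Upper-quartile scaling moved the median of all genes from 0.19 to 0.03, and 5 of 7 members were then higher, with a median of 0.31. With the month named in the sample titles as a term, 4 of 7 were higher, with differences from -0.21 for Maf to 0.78 for Klf2. Month was not balanced over the genotypes: the titles name December for FF 4, FFC 2, FFC 3 and FFC 4, and November for the rest. A part of each genotype difference therefore cannot be told apart from month. The labels do not say what that date records.

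**Figure D2:**
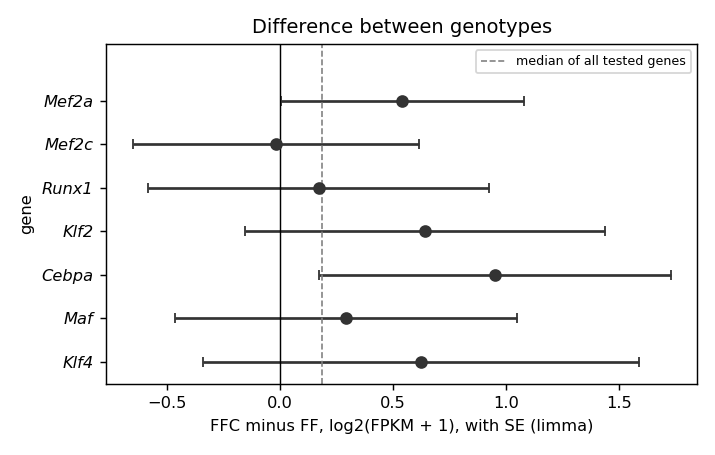
FFC minus FF difference of mean log2(FPKM + 1) for the 7 tested factors, with the standard error from limma. The points run from -0.02 for Mef2c to 0.95 for Cebpa, and the dashed line is the median of all tested genes, 0.19.

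Mef2a and Mef2c encode related MADS-box proteins that bind the same A/T-rich element. Mef2a (ENSMUSG00000030557, mm9 chromosome 7, 74376049 to 74517744) had 222, 71.3, 212 and 112 FPKM across FF 1 to FF 4, against 140, 214, 227 and 250.5 across FFC 1 to FFC 4. The libraries FF 2, FF 4 and FFC 1 lay below the other 5, which fell between 212 and 250.5. The difference between the genotypes was 0.54 ± 0.54 (SE; limma adjusted p = 0.773, exact two-sided permutation p = 0.20), and -0.10 without FF 2 and FF 4. Mef2c (ENSMUSG00000005583, chromosome 13, 83643033 to 83806684) had 41.5, 164, 40.8 and 102 FPKM across FF, against 80.3, 76.3, 40.9 and 108 across FFC. Its highest value was in FF 2, the library with the lowest Mef2a, and FF 1, FF 3 and FFC 3 were nearly equal at the bottom. The difference was -0.02 ± 0.63 (SE; limma adjusted p = 0.995, exact two-sided permutation p = 0.971), and 0.80 without FF 2 and FF 4.

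The 2 MEF2 genes did not keep a fixed ratio. Mef2a was above Mef2c in 7 of 8 libraries. The ratio of their FPKM was 5.35 in FF 1, 0.434 in FF 2, 5.20 in FF 3 and 1.10 in FF 4, and 1.75, 2.80, 5.55 and 2.31 in FFC 1 to FFC 4. FF 2 was the 1 library in which Mef2c was the more abundant. The log2 difference between them averaged 0.92 ± 1.76 in FF and 1.48 ± 0.70 in FFC (SD, n = 4; exact two-sided permutation p = 0.60). Ranked among the 17753 tested genes of its own library, a measure that does not depend on the total, Mef2a stood between the 95.5th and 98.5th percentile and Mef2c between the 86.0th and 98.3rd. The lowest percentile of Mef2a and the highest of Mef2c were both in FF 2.

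**Figure D3:**
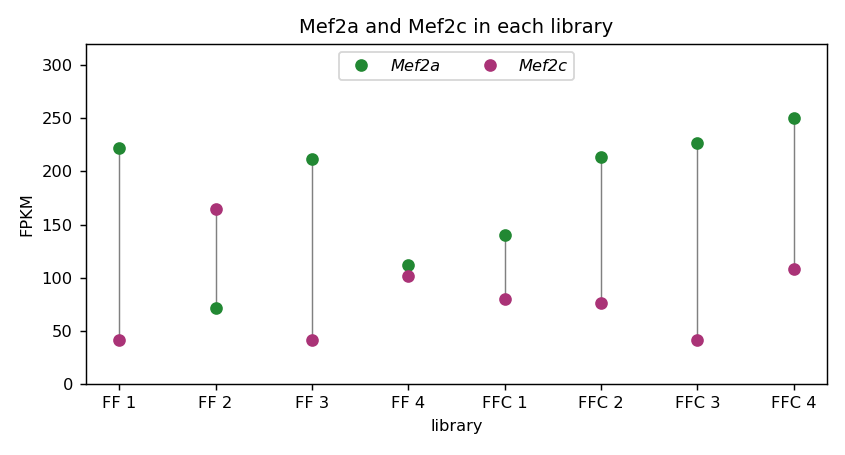
FPKM of Mef2a (green) and Mef2c (purple) in each of the 8 libraries, joined by a line per library. Mef2a is higher in 7 libraries, with ratios up to 5.55, and Mef2c is higher in FF 2 (ratio 0.434).

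Runx1 encodes the DNA-binding partner of CBF-beta that is needed for definitive blood formation. Runx1 (ENSMUSG00000022952, chromosome 16, 92601712 to 92826311) had 65.9, 9.94, 59.7 and 29.9 FPKM across FF, against 19.2, 25.5, 47.2 and 84.8 across FFC. It was lowest in FF 2 and highest in FFC 4, an 8.53-fold range, with values of both genotypes interleaved. The difference was 0.17 ± 0.75 (SE; limma adjusted p = 0.962, exact two-sided permutation p = 0.83), and -0.72 without FF 2 and FF 4. It was the member whose direction changed under the most alternatives, 6 of 21. The alternatives that changed only the filter, the variances or the term for sex or replicate number could not turn it.

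Of the 2 C/EBP members, Cebpa, which encodes the factor that commits progenitors to the myeloid lineage, was clearly detected and Cebpb was near 0. Cebpa (ENSMUSG00000034957, chromosome 7, 35904312 to 35906945) had 17.1, 4.02, 12.4 and 8.39 FPKM across FF, against 5.91, 21.3, 22.2 and 43.4 across FFC. In FFC, 3 of 4 libraries were above all of FF, while FFC 1 was below 3 of the 4 FF libraries. Its difference of 0.95 ± 0.78 was the largest among the tested members (SE; limma adjusted p = 0.759, exact two-sided permutation p = 0.229). It was higher in FFC under all 21 alternatives, from 0.36 without FF 2 and FF 4 to 1.46 without FFC 1. It passed the test under none, with a smallest limma adjusted p of 0.653. The filters, robust variances and the terms for sex or replicate number could not change the difference, so its direction under these was fixed. Cebpb (ENSMUSG00000056501, chromosome 2, 167514415 to 167515918) was listed at 0 in FF 1 and FF 2 and had 0.578 and 0.447 FPKM in FF 3 and FF 4. In FFC it had 0.380, 0.145, 0.251 and 0.0251 FPKM. These values do not show that the gene was off. Most of its span lies inside that of Tmem189 (167468108 to 167515322), which had 0.951 to 19.8 FPKM, and the sources used here do not say how reads were divided between the 2 genes.

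Klf2 and Klf4, which encode related zinc-finger proteins, are both short genes that were highest in the same 2 libraries. Klf2 (ENSMUSG00000055148, chromosome 8, 74842932 to 74845555) had 11.5, 12.8, 34.2 and 3.78 FPKM across FF, against 9.04, 20.4, 16.2 and 45.5 across FFC. Klf4 (ENSMUSG00000003032, chromosome 4, 55540013 to 55545347) had 2.10, 0.301, 6.83 and 0.293 FPKM across FF, against 0.109, 5.13, 1.99 and 10.3 across FFC. FFC 4 was highest and FF 3 next for both, and Klf4 was under 1 FPKM in FF 2, FF 4 and FFC 1. The genotype differences were 0.64 ± 0.79 for Klf2 and 0.62 ± 0.96 for Klf4 (SE; limma adjusted p = 0.823 and 0.863; exact two-sided permutation p = 0.40 and 0.571). Without FF 2 and FF 4 they were -0.04 and -0.34. Klf2 was above Klf4 in 8 of 8 libraries, by 2.37 ± 0.70 in FF and 2.39 ± 0.61 in FFC on the log2(FPKM + 1) scale (SD, n = 4; exact two-sided permutation p = 0.971 for the difference between genotypes).

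Maf encodes the large MAF protein c-Maf, a factor of macrophage and T helper cell programmes. Maf (ENSMUSG00000055435, chromosome 8, 118206842 to 118231694) had 5.66, 3.71, 7.38 and 12.1 FPKM across FF, against 4.61, 6.63, 7.61 and 20.1 across FFC. Only FFC 4 was above all FF libraries. The row Gm15655 (118228978 to 118231133, 3.32 to 15.0 FPKM) lies within its span, so reads of the 2 rows may not be separate. The difference was 0.29 ± 0.76 (SE; limma adjusted p = 0.925, exact two-sided permutation p = 0.571), 0.33 without FF 2 and FF 4, and -0.10 without FFC 4.

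No member passed the test between the sexes. With genotype as a covariate, limma called 0 members and 0.0% of all tested genes between males and females, and the differences ran from -0.52 for Runx1 to 0.67 for Klf2. The interaction of genotype and sex likewise gave 0 called members (0.0% of all tested genes). Its smallest adjusted p among them was 1.00, and 2 libraries per sex and genotype leave its standard errors between 1.20 and 2.07.

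The same libraries were low or high for several members. FF 2, FF 4 and FFC 1 held the 3 lowest values of Mef2a, Cebpa and Klf4, while FFC 4 held the highest value of Mef2a, Cebpa, Runx1, Maf, Klf2 and Klf4. The 3 low libraries are of both genotypes, both sexes and both months. The low libraries were also seen in ranks: as percentiles among the tested genes of a library, Cebpa stood at 53.6, 68.8 and 61.1 in FF 2, FF 4 and FFC 1 and at 70.4 to 85.3 in the others. Klf4 stood at 20.5, 26.0 and 21.2 in those libraries and at 35.7 to 62.9 in the others. Mef2c did the opposite, with its 3 highest percentiles, 98.3, 96.5 and 94.5, in FF 2, FF 4 and FFC 1, although FFC 4 followed closely at 94.2. In ranks FFC 4 was highest for Cebpa, Runx1 and Klf4 alone. Mef2a ranked highest in FFC 3 (98.5, against 97.7 in FFC 4), Maf in FF 4 (75.0, against 73.7) and Klf2, by a narrow margin, in FF 3. The microglia marker sum was also lowest in FF 2, FF 4 and FFC 1, at 1662, 2779 and 3163 FPKM, against 3997 to 5796 in the other 5. Summed immediate-early and dissociation genes were 90.0, 147 and 218 FPKM there, 202 in FF 1 and 906 to 1696 in the remaining 4. Of 15 tested genes of that list 13 were higher in FFC, beside 56.7% of all tested genes. In limma 4 of the 15 had an unadjusted p under 0.05 (6.46% of all tested genes) and 0 were called (0.0%). The part of either measure in the members' values was not tested. Of all tested genes 5.76% had a smaller residual standard deviation than Mef2a, and 59.3% a smaller one than Klf4.

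**Figure D4:**
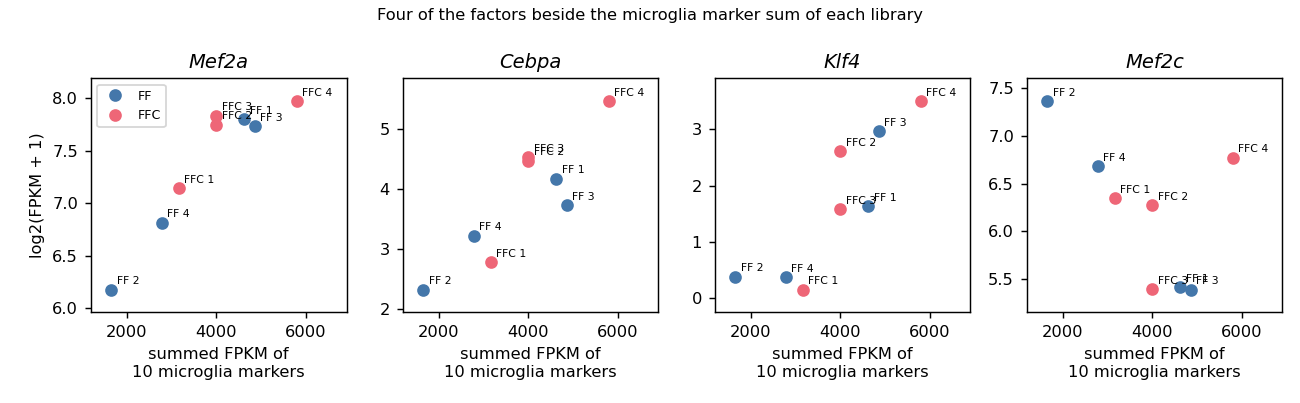
log2(FPKM + 1) of Mef2a, Cebpa, Klf4 and Mef2c in each library against the summed FPKM of 10 microglia markers, FF in blue and FFC in red. FF 2, FF 4 and FFC 1, with marker sums of 1662, 2779 and 3163, hold the 3 lowest values of Mef2a, Cebpa and Klf4, and FF 2 holds the highest value of Mef2c.

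Markers of other cells in which these factors act were present at varying levels. The 8 neutrophil markers summed to 193 to 2804 FPKM across FF, against 2.83 to 825 across FFC, and 5 of the 8 were listed at 0 in some library. In FFC 4, where Cebpa was highest, the sum was 2.83, the lowest of the 8 libraries. The 8 endothelial markers summed to 23.4 to 52.4 FPKM across FF, against 15.7 to 30.2 across FFC, and 2 of them, Cldn5 and Esam, were listed at 0 in some library. In FFC 4, where Klf2 and Klf4 were highest, the sum was 30.2, the highest in FFC. Cldn5 and Esam were at 0 there and Pecam1 at 12.3 FPKM. The sum was higher in FF 1, FF 2 and FF 4, at 45.8, 52.4 and 46.6 FPKM. In these libraries Klf4 had 2.10, 0.301 and 0.293 FPKM, and Klf2 had 11.5, 12.8 and 3.78. The 7 T cell markers summed to 306 FPKM in FF 1 and to 7.07 to 35.6 in the other libraries, and 4 of the 7 were listed at 0 in some library. The 4 measured markers of border-associated macrophages summed to 231 to 832 FPKM across FF, against 83.3 to 607 across FFC, and none was at 0. The 607 was in FFC 4, where Maf, Cebpa, Runx1, Klf2 and Klf4 were highest, and the other FFC libraries reached at most 221. The 832, the highest of the 8 libraries, was in FF 1. There Maf, Cebpa, Runx1, Klf2 and Klf4 had 5.66, 17.1, 65.9, 11.5 and 2.10 FPKM, none of them its highest value. Lower in FFC were 5 of 6 tested neutrophil, 6 of 8 endothelial, 6 of 7 T cell and 4 of 4 border-associated macrophage markers. Of all tested genes 56.7% were higher in FFC. Lck and Esam, named here after their values were seen, lay wholly lower in FFC, as for 1.29% of all tested genes. Between the genotypes limma called 0 genes of these 4 lists (0.0% of all tested genes). Their part in the levels of Cebpa, Klf2, Klf4, Runx1 and Maf was otherwise not tested.

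Relatives of the members and further microglial factors were read from 7 lists of transcription factors. Of 61 measured genes in these lists, 46 were tested and 0 were called. In FFC 33 were higher (71.7%, beside 56.7% of all tested genes) and 13 lower, with a median difference of 0.48 beside 0.19, and 56.8% of the tested ones were higher without FF 2 and FF 4. Irf1, an interferon-induced factor of the family of Irf8, had 5.23, 0.307, 3.48 and 7.64 FPKM across FF, against 28.3, 26.4, 22.4 and 9.79 across FFC (difference 2.33 ± 0.81, SE; limma adjusted p = 0.712). All 4 FFC values lay above all 4 FF values, as for 3.05% of all tested genes, but the difference did not pass the test. Without FF 2 and FF 4 it was 2.01 (limma adjusted p = 0.845).

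Family by family, 6 of 8 tested IRF relatives were higher in FFC and 2 lower (median 1.20). Irf2, a factor that competes with IRF1 for its sites, had 27.7, 0.805, 6.77 and 1.16 FPKM across FF, against 16.6, 13.4, 18.7 and 18.25 across FFC, and its difference of 1.70 was 0.24 without FF 2 and FF 4. All 3 tested MAF relatives were higher (median 0.62), with Mafk at 0.807 ± 1.53 FPKM across FF, against 3.11 ± 5.63 across FFC (SD, n = 4), of which FFC 4 alone had 11.5. The 1 tested MEF2 relative, Mef2d, had 20.8 ± 13.1 and 35.4 ± 21.3 FPKM. Of 4 tested C/EBP relatives 3 were higher (median 0.13). Among these, Cebpg had 58.6 ± 24.2 FPKM across FF, against 39.4 ± 39.3 across FFC, and the stress-induced Ddit3 5.59 ± 5.32 and 7.01 ± 3.54. Without FF 2 and FF 4 the difference of Mafk went from 0.62 to 0.13, that of Mef2d from 0.77 to 0.19, that of Cebpg from -0.98 to -1.51 and that of Ddit3 from 0.54 to -0.54. Of 9 tested KLF relatives 7 were higher and 2 lower (median 0.35), and of 17 other microglia and macrophage factors 12 were higher and 5 lower (median 0.57). In the last list Mitf, a factor of lysosome genes, had 4.93 ± 5.89 FPKM across FF, against 17.4 ± 14.8 across FFC. Spi1, which encodes the master myeloid factor PU.1 (listed under the older symbol Sfpi1, and named here after its values were seen), had 190, 98.3, 59.1 and 131 FPKM across FF, against 90.7, 167, 147 and 317 across FFC. Like Mef2a it was highest in FFC 4, but its lowest value was in FF 3.

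The list of RUNX relatives held Runx2, Runx3, the partner gene Cbfb and Runx1t1. It was the only list of relatives in which fewer genes were higher than lower in FFC, 1 of 4 (median -0.17). The higher gene was Cbfb (difference 0.25), named here after its values were seen, and Runx2 was at -0.09. Runx3, the RUNX gene of T and NK cells, had 26.6, 4.44, 27.3 and 0.0936 FPKM across FF, against 3.59, 0.774, 1.93 and 0.251 across FFC (difference -1.82 ± 1.08, SE; limma adjusted p = 0.759). FF 1, the library with the highest T cell marker sum, and FF 3 carried the high values. With month as a term the difference was -0.52. Without FF 2 and FF 4 it was -3.58 (limma adjusted p = 0.631), and leaving out 1 library at a time gave -2.79 to -1.23. Runx1t1, which encodes a corepressor, was at 1.51 ± 2.09 FPKM across FF, against 0.859 ± 1.06 across FFC (SD, n = 4). Runx2, best known in bone and named here after its values were seen, had 0.224, 57.4, 22.0 and 5.84 FPKM across FF, against 55.5, 6.17, 6.91 and 1.73 across FFC. Its highest values were in FF 2 and FFC 1, where Runx1 was lowest, and its lowest in FF 1 and FFC 4, where Runx1 was highest. A second row under the name Runx2 lies within this one and was not used, so the split of reads between the rows is uncertain.

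**Figure D5:**
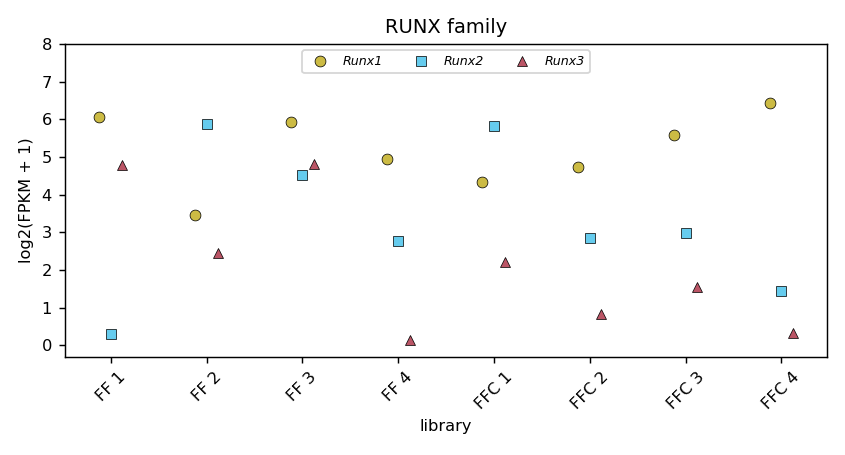
log2(FPKM + 1) of Runx1, Runx2 and Runx3 in each of the 8 libraries, 1 point per gene and library. Runx2 is highest in FF 2 and FFC 1, where Runx1 is lowest, and Runx3 is highest in FF 1 and FF 3.

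Among 18 genes known as targets of these factors, 14 were tested, 11 were higher and 3 lower in FFC, and 0 were called. Of all tested genes 56.7% were higher. The median difference of the targets was 0.50, beside 0.19 over all tested genes. The complement genes C1qc and C1qa had the smallest unadjusted p. C1qc had 470, 101, 448 and 189 FPKM across FF, against 637, 632, 606 and 715 across FFC (difference 1.35 ± 0.54, SE; limma adjusted p = 0.713). Its FFC values lay wholly above FF, as for 3.05% of all tested genes, and its difference was 0.49 without FF 2 and FF 4. Csf3r, named here after its values were seen, also lay wholly higher in FFC (difference 0.63 ± 0.49, SE; limma adjusted p = 0.759). C1qa had 676, 60.7, 297 and 115 FPKM across FF, against 638, 489, 432 and 999.8 across FFC, with overlap, and its difference of 1.64 was 0.43 without FF 2 and FF 4.

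For each tested member the 2 most similar genes were taken from the 8094 genes averaging 5 FPKM or more, by the root mean square difference of centred log2(FPKM + 1) over the 8 libraries. The profile of Mef2a was closest to Larp1 (0.18) and to Csf1r (0.19), the growth factor receptor that microglia need to survive, beside a median of 1.15 over all candidates. Csf1r had 750, 379, 1017 and 551 FPKM across FF, against 607, 954, 875 and 1062 across FFC, with its 3 lowest values in FF 2, FF 4 and FFC 1 as for Mef2a. The closest profiles were Fam126a (0.18) and Nol9 (0.24) for Maf, Tnpo1 (0.23) and Mfng (0.27) for Runx1, and Polr1d (0.29) and Tmpo (0.33) for Cebpa. They were Fam46a (0.30) and Bhlhe41 (0.36) for Klf2, Hnrnpl (0.38) and Serpinf1 (0.41) for Klf4, and Spag9 (0.39) and Sirpb1c (0.41) for Mef2c. With 8 libraries and this many candidates some profiles lie close to any gene, so these are descriptions of the libraries.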

How the data were processed

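The authors deposited FPKM values in 1 table, 1 column for each library. Build mm9, Cufflinks 2.0.2, Bowtie2 2.0.0, TopHat2 2.0.4 and CASAVA 1.8.2 are listed in the submitters' processing notes, without roles or order. The sources used here give no annotation, strand setting or parameters. Of the 37447 genes, 447 with a missing value were left out. Locus starts count from 0 (21680 gene lengths then equal those of GENCODE M21, 420 otherwise) and are printed counted from 1. Values were used as log2(FPKM + 1), which understates changes of low genes, for the 17753 genes averaging 1 FPKM or more. limma 3.58.1 in R 4.3.3 (empirical Bayes with trend, two-sided, Benjamini-Hochberg, threshold 0.05) tested genotype, sex and their interaction, and was tested on simulated data. Single values were compared by exact permutation over the 70 arrangements of 4 and 4 libraries (smallest p 0.0286). Python 3.11.15, numpy 2.4.6, pandas 2.3.3 and matplotlib 3.10.9 did the rest.

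Members, lists and alternatives were chosen with earlier results of these data known. Named genes were the members, up to 2 genes per list of relatives and targets with the smallest unadjusted p, and the 2 most similar profiles per tested member (predicted, microRNA, snoRNA and pseudogene symbols left out). One gene that the rule names is not reported here. List genes were matched by Ensembl identifier, then name. Alternatives were pseudocounts of 0.1 and 5, no filter or an average of 5 FPKM, 3 scalings, robust variances, array weights, added terms (sex, month, or the replicate number), and fits without 1 library or without FF 2 and FF 4.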

Additional observations from a re-analysis of the deposited data

How the results depend on the processing

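Among the alternatives run, none gave a limma call for a member. Leaving out 1 library at a time moved the differences between -0.10 and 0.55 for Maf, 0.22 and 0.76 for Mef2a, -0.29 and 0.37 for Mef2c, 0.57 and 1.46 for Cebpa, -0.38 and 0.49 for Runx1, 0.16 and 1.12 for Klf2, and 0.11 and 1.23 for Klf4. Without FF 2 and FF 4 together the signs turned for Mef2a (-0.10), Mef2c (0.80), Runx1 (-0.72), Klf2 (-0.043), Klf4 (-0.34) and the relative Ddit3 (-0.54), and 3 of 7 tested members were higher in FFC. Runx1 was at -0.051 after upper-quartile scaling, -0.023 at equal summed FPKM and -0.089 with month as a term, where Maf was at -0.21. With a pseudocount of 0.1 the interaction of Klf4 with sex was 0.32. The cause of these turns was not tested.

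Over all genes limma called 0, and 1146 had an unadjusted p under 0.05. Leaving out 1 library gave 0 to 2 called genes and 864 to 1478 at the unadjusted threshold: Mir15a without FF 1, U11 without FF 3, Igkv17-127 and Igkv3-7 without FF 4, and SNORA65 without FFC 4. Leaving out FF 2 and FF 4 gave 4 (U1, Igkv17-127, Igkv17-121 and Gm14399). These genes were named after their values were seen. The replicate block, the number of the labels as a term, left the differences as they were (0.95 for Cebpa) and called 0 genes, with 1014 at the unadjusted threshold. Same-numbered libraries were of the same sex, and their correlations of deviations lay between -0.05 and 0.03. Differently numbered pairs ran from -0.12 to 0.12. The labels do not say whether same-numbered libraries share anything more, and these correlations cannot tell.

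The order of levels, without 1 library at a time, had mean differences of 1.02 to 1.54 for Mef2a over Mef2c, 0.61 to 1.26 for Mef2c over Runx1, 0.94 to 1.37 for Runx1 over Klf2, 0.00042 to 0.35 for Klf2 over Cebpa (lowest without FF 2, highest without FF 4), 0.65 to 0.94 for Cebpa over Maf, 1.16 to 1.63 for Maf over Klf4 and 1.07 to 1.61 for Klf4 over Cebpb. FPKM values without counts give no depth per library, so the counting error of low members such as Klf4 and Cebpb could not be estimated.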

Other observations

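Some relatives of the members had 1 library far above the rest. Klf5 had 36.5 FPKM in FFC 3 and at most 2.55 in the other 7 libraries. Klf10 had 17.2 FPKM in FF 3 and at most 2.09 elsewhere. Smad3, which carries TGF-beta signals to the nucleus, had 748 FPKM in FFC 4, 3.60 in FF 4 and 42.0 to 136 in the other 6 libraries. Klf3 was the most abundant KLF gene, at 127, 107, 215 and 41.3 FPKM across FF, against 52.3, 111, 179 and 193 across FFC, with FF 4 and FFC 1 lowest. Klf3 was named after its values were seen.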
